A study of Homo sapiens with 12 samples.

Results

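The HOX-embedded miRNA are encoded inside the clusters of HOX genes. They were chosen by name, as hsa-miR-10a-5p, hsa-miR-10b-5p, hsa-miR-196a-5p, hsa-miR-196b-5p and hsa-miR-615-3p. Of these 5 miRNA, 3 had a row among the 1133 miRNA analysed, namely hsa-miR-10a-5p, hsa-miR-10b-5p and hsa-miR-196a-5p. hsa-miR-196b-5p and hsa-miR-615-3p were not analysed here, and neither were the opposite arms of these hairpins.

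Small RNA had been sequenced from extracellular vesicles (EV) in medium conditioned by cells of the established human induced pluripotent stem cell (hiPSC) line IMR90-4, with 3 libraries from separate cultures in each of 4 groups. hiPSC-EV came from undifferentiated cells at day 0 after 24 h of conditioning, and CPC-EV from cardiac progenitor cells at day 6 after 72 h. CMi-EV came from immature cardiomyocytes at day 15 and CMm-EV from more mature cardiomyocytes at day 35, both after 48 h. Every group derives from a single hiPSC line. The culture medium differed between all stages, the hours of conditioning differed except between CMi-EV and CMm-EV, and cells were moved from monolayers to aggregates between CPC-EV and CMi-EV. Effects of these changes and of the cell stage cannot be told apart where they coincide, and vesicle RNA is not a direct measure of the RNA inside the cells. Counts on miRNA ranged from 703418 in hiPSC-EV 1 to 6272456 in CMm-EV 2.

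HOX genes encode transcription factors that give cells their position along the body axis, and they are switched on in cluster order as an embryo forms. Pluripotent cells keep them largely silent. The miR-10 and miR-196 hairpins lie between or within HOX genes, are commonly transcribed along with their neighbours, and have HOX messenger RNA among their known targets. In the heart field, anterior HOX genes are known from progenitors of the posterior second heart field.

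The mature sequences of RefSeq (GRCh38.p14) follow from 5′ to 3′, with the seed, bases 2 to 8, in capitals. Sequences of 4 members come first, and then those of related miRNA that are compared with them.
hsa-miR-10a-5p: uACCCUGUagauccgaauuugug
hsa-miR-196a-5p: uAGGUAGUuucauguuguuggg
hsa-miR-196b-5p: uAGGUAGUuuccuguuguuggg
hsa-miR-615-3p: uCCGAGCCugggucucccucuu
hsa-miR-99a-5p: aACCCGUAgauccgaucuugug
hsa-miR-99b-5p: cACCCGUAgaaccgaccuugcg
hsa-miR-100-5p: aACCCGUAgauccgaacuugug
hsa-let-7a-5p: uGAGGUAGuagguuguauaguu
miR-196a-5p and miR-196b-5p shared their seed and differed at 1 base, A12C, counted from the 5′ end with the base of miR-196a-5p first. miR-615-3p had a seed of its own. miR-99a-5p, miR-99b-5p and miR-100-5p shared a seed that is not the seed of miR-10a-5p, although miR-10a-5p and miR-100-5p had a run of 11 bases in common, guagauccgaa. With let-7a-5p, miR-196a-5p shared a run of 7 bases that in miR-196a-5p is the seed and in let-7a-5p starts a base later.

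In hg38 with GENCODE v44, all 6 hairpins of the 5 miRNA lay inside an annotated HOX gene, on its strand. MIR10A (chr17:48579838-48579947, minus strand) lay in an intron of HOXB3, 1488 bases from HOXB4. MIR10B (chr2:176150303-176150412, plus strand) held the matching place in the HOXD cluster, in an intron of HOXD3 and 1138 bases from HOXD4. miR-196a-5p is encoded at 2 places, MIR196A1 (chr17:48632490-48632559, minus strand) in an intron of HOXB7 and MIR196A2 (chr12:53991738-53991847, plus strand) in an intron of HOXC6. MIR196B (chr7:27169480-27169563, minus strand) overlapped an exon of HOXA9, and MIR615 (chr12:54033950-54034045, plus strand) lay in introns of HOXC4 and HOXC5. The count of miR-196a-5p therefore cannot be assigned to HOXB or HOXC.

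**Figure D1:**
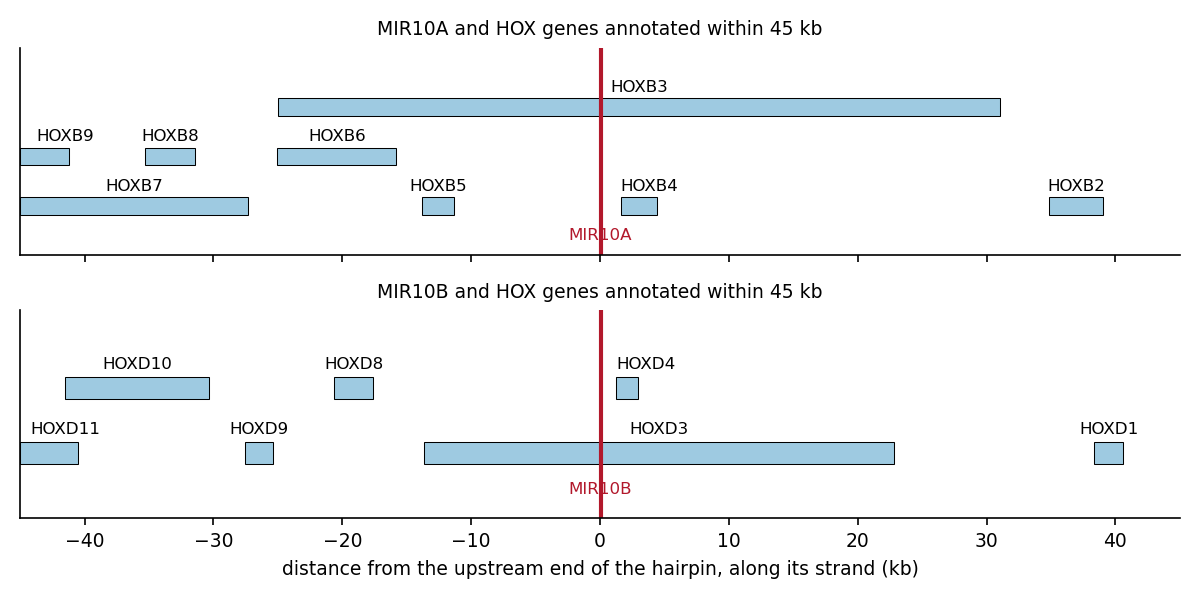
HOX genes around the hairpins of MIR10A (HOXB cluster) and MIR10B (HOXD cluster), drawn to scale against the distance in kb from the upstream end of each hairpin along its strand; blue bars are genes as annotated in GENCODE v44, cut where they pass the edge of the window, their height has no meaning, and the red line is the hairpin. MIR10A lies inside HOXB3 and 1488 bases from HOXB4, and MIR10B lies inside HOXD3 and 1138 bases from HOXD4.

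miR-10a-5p, encoded in the HOXB cluster, went from few counts in hiPSC-EV to one of the more abundant miRNA of cardiomyocyte EV. Levels are given as CPM, the count of a miRNA scaled to a fixed total of miRNA counts per library, after TMM normalization over the 12 libraries. In hiPSC-EV 1, 2 and 3 it was at 2.32, 37.0 and 0.853 CPM, which rest on 2, 93 and 3.5 expected counts, the last rounded to 4. In CPC-EV it was at 364, 641 and 904 CPM. Every CPC-EV library was above every hiPSC-EV library, and the lowest CPC-EV value was 9.85 times the highest hiPSC-EV value. In CMi-EV it was at 5342, 3656 and 15880 CPM, all above CPC-EV, with the third library well above the other two. In CMm-EV it was at 8371, 23004 and 29008 CPM, a range that overlapped that of CMi-EV. The means were in the order of the stages, from 13.4 ± 20.4 CPM (SD, n = 3) for hiPSC-EV and 636 ± 270 CPM for CPC-EV to 8293 ± 6625 CPM for CMi-EV. CMm-EV had the highest mean, 20128 ± 10615 CPM, and did not differ from CMi-EV beyond their spread. Scaled to library size alone, the means were 13.5 CPM for hiPSC-EV, 970 CPM for CPC-EV, 8597 CPM for CMi-EV and 11776 CPM for CMm-EV. The rank of miR-10a-5p among all miRNA was between 233 and 765 for hiPSC-EV and between 53 and 83 for CPC-EV. It was between 12 and 31 for CMi-EV and between 10 and 18 for CMm-EV.

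miR-10b-5p, its close relative in the HOXD cluster, followed another course. It was at 23.2, 183 and 268 CPM in hiPSC-EV and at 64.5, 47.6 and 20.8 CPM in CPC-EV. These groups overlapped, because hiPSC-EV 1 was as low as the CPC-EV libraries. In CMi-EV it was at 103, 65.1 and 128 CPM and in CMm-EV at 109, 174 and 239 CPM. The means were 158 ± 124 CPM (SD, n = 3) for hiPSC-EV and 44.3 ± 22.01 CPM for CPC-EV, then 98.8 ± 31.8 CPM for CMi-EV and 174 ± 64.7 CPM for CMm-EV. From low to high the order was CPC-EV, CMi-EV, hiPSC-EV and CMm-EV, and the libraries of CMi-EV, hiPSC-EV and CMm-EV overlapped from each neighbour to the next. CPC-EV and CMi-EV were next to each other without overlap, and this separation was lost when levels were scaled to library size alone. Scaled to library size alone, hiPSC-EV had the highest mean at 145 CPM, above CMm-EV with 105 CPM and CMi-EV with 104 CPM, and CPC-EV again had the lowest at 64.4 CPM.

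**Figure D2:**
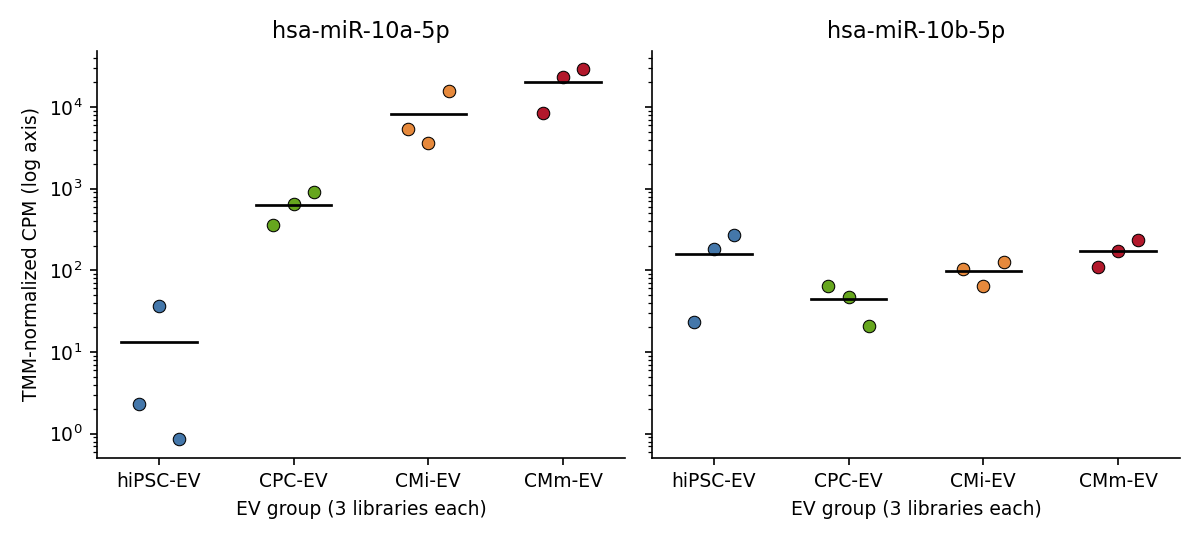
TMM-normalized CPM of hsa-miR-10a-5p and hsa-miR-10b-5p on a log axis against the EV group; each point is 1 library and each horizontal line the group mean. miR-10a-5p spans from 0.853 to 29008 CPM with separate ranges for hiPSC-EV, CPC-EV and the cardiomyocyte groups, while miR-10b-5p stays between 20.8 and 268 CPM.

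The comparison of successive stages asked which miRNA change as hiPSC become cardiomyocytes. A miRNA was called when the Benjamini-Hochberg adjusted p (FDR) of edgeR's quasi-likelihood test was at most 0.05 and the log2 fold change was at least 1 in either direction. From hiPSC-EV to CPC-EV, miR-10a-5p rose, with a log2 fold change of 6.00 ± 1.29 (SE, FDR = 0.0105). The size of this change is loosely determined, because hiPSC-EV 2 held most of the hiPSC-EV counts. Without hiPSC-EV 2 the log2 fold change was 9.38, and without hiPSC-EV 3 it was 5.38. miR-10b-5p had a log2 fold change of -1.37 ± 0.86 (FDR = 0.299) and was not called. Some markers of endoderm moved with this step. Their list of 4 summed to between 1302 and 2251 CPM for hiPSC-EV, led by miR-192-5p, and to between 6304 and 8865 CPM for CPC-EV, led by miR-375-3p in CPC-EV 1 and 2 and by miR-192-5p in CPC-EV 3. miR-375-3p was at no more than 102 CPM in hiPSC-EV and at 2834 CPM or more in CPC-EV. miR-122-5p was at 0 in hiPSC-EV 1 and 2 and at 469 CPM or more in CPC-EV. The libraries of miR-192-5p and of miR-194-5p overlapped between these groups, and the part of such cells in the level of miR-10a-5p was not tested. Of the 2 members that passed the filter, 1 was called, against 27.5% of all 338 miRNA tested. Counted from the highest fold change down, miR-10a-5p was number 10 of the 338. It passed the filter through its CPC-EV level alone, since hiPSC-EV 1 and 3 were below 5 CPM. In the other pairs with hiPSC-EV it passed through its CMi-EV or CMm-EV level alone. Its being tested thus depended on the group where it was high.

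From CPC-EV to CMi-EV, miR-10a-5p rose again, by a log2 fold change of 3.67 ± 0.62 (SE, FDR = 0.00421), and without CMi-EV 3 by 2.87. All 3 CMi-EV libraries of miR-10b-5p were above those of CPC-EV, by as little as 1.01 times between the nearest libraries, though they overlapped with library size scaling. Its log2 fold change of 1.13 ± 0.71 (FDR = 0.304) was not called. Again 1 of 2 members was called, beside 28.4% of 292 miRNA.

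From CMi-EV to CMm-EV, neither member was called, beside 16.6% of 247 miRNA. The log2 fold change was 1.14 ± 0.66 (SE, FDR = 0.306) for miR-10a-5p and 0.67 ± 0.58 (FDR = 0.481) for miR-10b-5p. The unadjusted p were 0.129 and 0.291, and DESeq2 called neither of them. The first of these results changed with CMi-EV 3 and with the filter. Without CMi-EV 3, miR-10a-5p was called with a log2 fold change of 2.00 (FDR = 0.0326), and without a filter on low counts it was called at 1.13 (FDR = 9.80e-05). Over all alternatives of this result the FDR ran from 9.80e-05 to 0.560.

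Markers of other cell types moved with CMi-EV 3. The list for fibroblasts and mesenchyme, miR-199a-3p with miR-199b-3p, miR-199a-5p, miR-199b-5p and miR-214-3p, summed to 34.8, 15.2 and 2320 CPM in CMi-EV 1, 2 and 3. All 4 entries had counts in CMi-EV 3, led by miR-199a-5p at 874 CPM. In CMi-EV 1 and 2, miR-199a-5p and miR-214-3p were at 0. The endoderm list (miR-375-3p, miR-122-5p, miR-192-5p and miR-194-5p) summed to 3764, 3470 and 7218 CPM in these libraries, led by miR-192-5p, with all 4 entries detected in each. Of this list, miR-375-3p was lowest in CMi-EV 3, at 233 CPM against 576 and 603 CPM. miR-122-5p was highest there, at 304, 269 and 2012 CPM in CMi-EV 1, 2 and 3. So were miR-194-5p, at 27.8, 69.3 and 298 CPM, and miR-192-5p, at 2856, 2529 and 4675 CPM. The cardiomyocyte list summed to 52631, 75603 and 20795 CPM, led by miR-1-3p at 49586, 72062 and 17343 CPM, so that its sum was lowest in CMi-EV 3. This came from miR-1-3p, since miR-208a-3p was at 524, 658 and 792 CPM and miR-499a-5p at 0, 13.7 and 93.5 CPM, both highest in CMi-EV 3, and miR-133a-3p was at 2428, 2831 and 2484 CPM. In CMm-EV the fibroblast and mesenchyme list came to 26.7, 178 and 170 CPM, below its 359, 358 and 507 CPM in hiPSC-EV. In hiPSC-EV miR-199b-5p led the list and miR-214-3p was at 0. The lower sum came from miR-199b-5p, at 359, 294 and 428 CPM in hiPSC-EV and at 0, 15.6 and 13.4 CPM in CMm-EV. miR-199a-5p went the other way, from 0, 0 and 3.62 CPM to 26.7, 51.7 and 52.1 CPM. In CMm-EV miR-214-3p was at 0, 15.6 and 11.4 CPM, and miR-199a-3p with miR-199b-3p overlapped between these groups. In CPC-EV the list came to 84.8, 36.9 and 113 CPM, lower than in hiPSC-EV, led by miR-199b-5p and with miR-214-3p at 0. The lower sum was mainly that of miR-199b-5p, at 84.8, 16.1 and 65.4 CPM. miR-199a-5p was at 0, 13.1 and 19.3 CPM, above hiPSC-EV in CPC-EV 2 and 3, and miR-199a-3p with miR-199b-3p overlapped. In CMm-EV 1, only miR-199a-5p of this list had counts. The endothelial pair, miR-126-3p and miR-126-5p, lay between 0 and 115 CPM in all 12 libraries and was at 0 in CMm-EV 1. The part of these cells in the levels of miR-10a-5p and miR-10b-5p was not tested, and in bulk samples fewer vesicles from a cell type cannot be told apart from less RNA per vesicle.

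The remaining pairs span more than 1 step and share libraries with the pairs above. miR-10a-5p was higher in CMi-EV than in hiPSC-EV by a log2 fold change of 9.40 ± 1.62 (SE, FDR = 0.00347) and in CMm-EV than in hiPSC-EV by 10.18 ± 1.66 (FDR = 0.00193). Without hiPSC-EV 2 these became 12.91 and 13.61, and without hiPSC-EV 3 they became 8.78 and 9.58. The fold change of CMi-EV over hiPSC-EV was lowest without CMi-EV 3, at 8.19. On both occasions 1 of 2 members was called, beside 41.4% and 53.6% of the miRNA tested. miR-10b-5p had log2 fold changes of -0.44 ± 0.84 (FDR = 0.692) and -0.23 ± 0.86 (FDR = 0.838) in these pairs, and the second turned positive, to 0.21, with median-of-ratios scaling.

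CMm-EV against CPC-EV was the comparison in which both members were called, beside 44.9% of 292 miRNA. The log2 fold change was 5.06 ± 0.68 (SE, FDR = 0.00145) for miR-10a-5p and 2.01 ± 0.67 (FDR = 0.0483) for miR-10b-5p. The call of miR-10b-5p lies at the edge of the threshold. It held with DESeq2 (FDR = 0.0122) and without CMm-EV 1 (FDR = 0.0309), and it was lost when any 1 of the other 5 libraries was left out and with every other alternative, over a range of FDR from 0.0122 to 0.371. The log2 fold change stayed positive in all of these fits, between 0.71 and 2.28. It was 1.37 or more in each of them except with library size scaling, where it was lowest. With that scaling the CPC-EV and CMm-EV libraries overlapped. The log2 fold change of miR-10a-5p was then 3.602 in this pair, still called, and 0.45 in CMm-EV against CMi-EV.

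Across the 4 EV groups together, miR-10a-5p differed (F-test of edgeR, FDR = 0.000351) and miR-10b-5p did not pass (FDR = 0.216). This is 1 of 2 members, beside 50.7% of 367 miRNA.

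**Figure D3:**
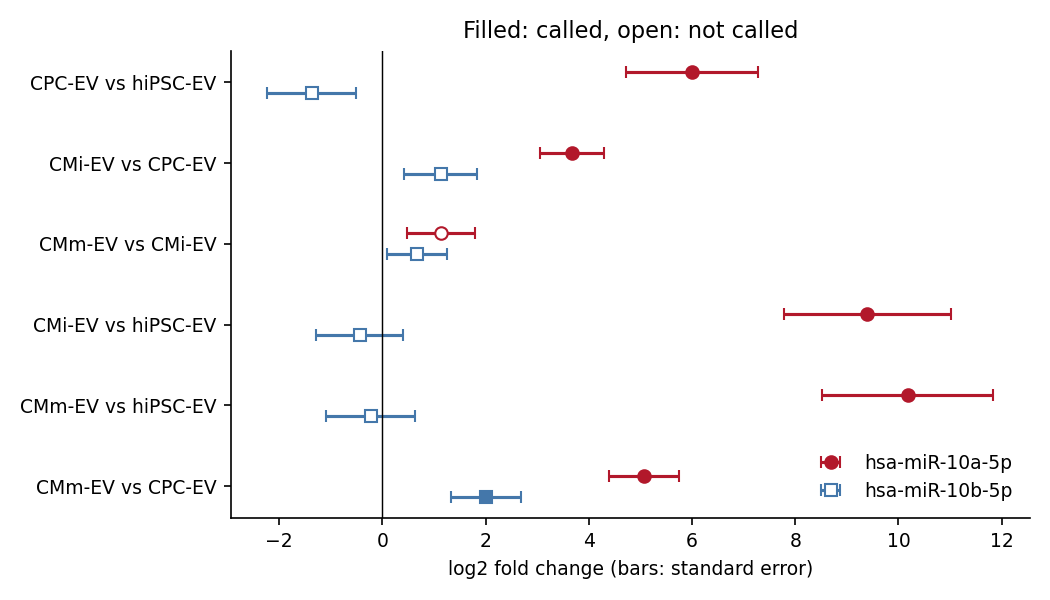
Log2 fold change of hsa-miR-10a-5p (circles) and hsa-miR-10b-5p (squares) in the 6 pairs of EV groups, the first named group over the second; bars are standard errors and filled symbols were called. miR-10a-5p is called in each pair except CMm-EV against CMi-EV, and miR-10b-5p is called in CMm-EV against CPC-EV, a call that other scaling removes.

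The share of miR-10b-5p among the counts on both miR-10 members needs no scaling between libraries. In hiPSC-EV it was 90.9%, 83.2% and 99.7%, with 95% Wilson intervals of 72.2 to 97.5%, 79.9 to 86.1% and 99.3 to 99.9%. In CPC-EV it was 15.04% (13.1 to 17.3%), 6.91% (6.02 to 7.91%) and 2.25% (1.74 to 2.91%). hiPSC-EV thus carried mainly miR-10b-5p and CPC-EV mainly miR-10a-5p, in every library. In CMi-EV the share was 1.89% (1.67 to 2.15%), 1.75% (1.47 to 2.08%) and 0.801% (0.692 to 0.927%), and in CMm-EV 1.29% (1.05 to 1.58%), 0.753% (0.698 to 0.812%) and 0.816% (0.754 to 0.883%). The intervals cover counting error only. The CMi-EV libraries were all below those of CPC-EV, and they overlapped with CMm-EV. The mean share was 91.3% ± 8.26 (SD, n = 3) for hiPSC-EV and 8.07% ± 6.47 for CPC-EV, with CMi-EV at 1.48% ± 0.593 and CMm-EV at 0.953% ± 0.293. Group means differed by up to 90.3 percentage points (one-sided exact permutation test of F over 15400 divisions of the libraries, p = 0.000195). An exact permutation test of a pair of groups of 3 cannot go below p = 0.1, so no pair was tested.

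Mature miR-10a-5p and miR-10b-5p are closely similar, and the counting may have split reads between them. Their counts were not whole numbers, to within 1e-06, in 4 and 2 of 12 libraries. How many reads were assigned to the wrong relative was not tested, and the low value of each miRNA is uncertain where the other is abundant, for miR-10a-5p in hiPSC-EV and for miR-10b-5p in CMi-EV and CMm-EV.

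**Figure D4:**
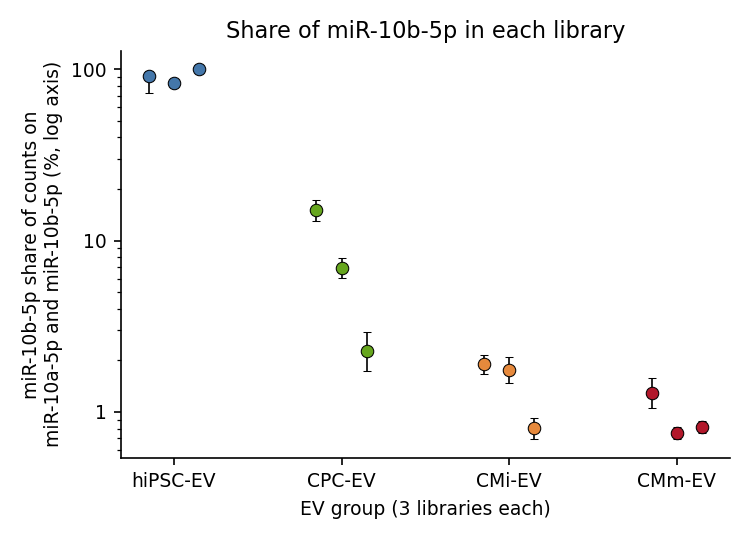
Share of miR-10b-5p in the counts on miR-10a-5p and miR-10b-5p, in percent on a log axis, against the EV group; each point is 1 library and bars are 95% Wilson intervals. The share is at least 83.2% in the hiPSC-EV libraries, at most 15.04% in those of CPC-EV and at most 1.89% in those of CMi-EV and CMm-EV.

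miR-196a-5p, a more posterior HOX miRNA, was close to undetected. It had 1 count, in CMm-EV 1, which is 1.02 CPM of 984868 miRNA counts (95% exact Clopper-Pearson interval 0.0257 to 5.66 CPM). The other 11 libraries had 0 counts, which allows up to 3 counts, or 0.478 CPM in CMm-EV 2 and 4.26 CPM in hiPSC-EV 1. It passed the filter in no comparison. A difference between the EV groups was not detectable at this depth.

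The related miR-99a-5p, miR-99b-5p and miR-100-5p are encoded on other chromosomes, and their group means were above that of miR-10a-5p in every EV group. miR-99a-5p was at 29.03, 37.4 and 39.4 CPM in hiPSC-EV, 895, 611 and 2237 CPM in CPC-EV, 44782, 34506 and 31669 CPM in CMi-EV, and 39541, 50290 and 54063 CPM in CMm-EV. Like miR-10a-5p it rose at the first step (log2 fold change 5.61 ± 0.61, SE, FDR = 0.000689) and at the second (4.88 ± 0.58, FDR = 0.00114). At the step from CMi-EV to CMm-EV miR-99a-5p was not called (0.22 ± 0.23, FDR = 0.551). Scaled to library size alone, its mean was 39314 CPM for CMi-EV and lower, 30106 CPM, for CMm-EV. miR-100-5p stayed at 1858 ± 349 CPM (SD, n = 3) in hiPSC-EV and 1980 ± 654 CPM in CPC-EV, where it was not called (0.53 ± 0.31, SE, FDR = 0.266). It then went to 215357 ± 45664 CPM in CMi-EV and 418165 ± 120951 CPM in CMm-EV, with a log2 fold change of 6.75 ± 0.40 (FDR = 0.000198) from CPC-EV to CMi-EV. From CMi-EV to CMm-EV it was not called (0.80 ± 0.34, FDR = 0.178), and scaled to library size alone its means there were 227090 and 256310 CPM. Among these related sequences, miR-10a-5p, miR-99a-5p and miR-99b-5p were called from hiPSC-EV to CPC-EV and miR-100-5p was not, and the differences between their fold changes were not tested.

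miR-99b-5p was high from the start, at 19059 ± 3844 CPM (SD, n = 3) for hiPSC-EV, and rose to 57418 ± 6513 CPM for CPC-EV (log2 fold change 2.02 ± 0.19, SE, FDR = 0.000482). Its mean was 112020 CPM for CMi-EV and 197829 CPM for CMm-EV, a step at which it was not called (FDR = 0.301), and 118554 and 118513 CPM when scaled to library size alone. let-7a-5p, whose sequence overlaps the seed of miR-196a-5p, had another pattern, going from 1679 ± 614 CPM for hiPSC-EV down to 245 ± 21.99 CPM for CPC-EV and 138 ± 35.05 CPM for CMi-EV, and to 4619 ± 1559 CPM for CMm-EV. It rose from CMi-EV to CMm-EV with a log2 fold change of 4.91 ± 0.37 (SE, FDR = 0.000189), the step at which miR-10a-5p was not called.

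**Figure D5:**
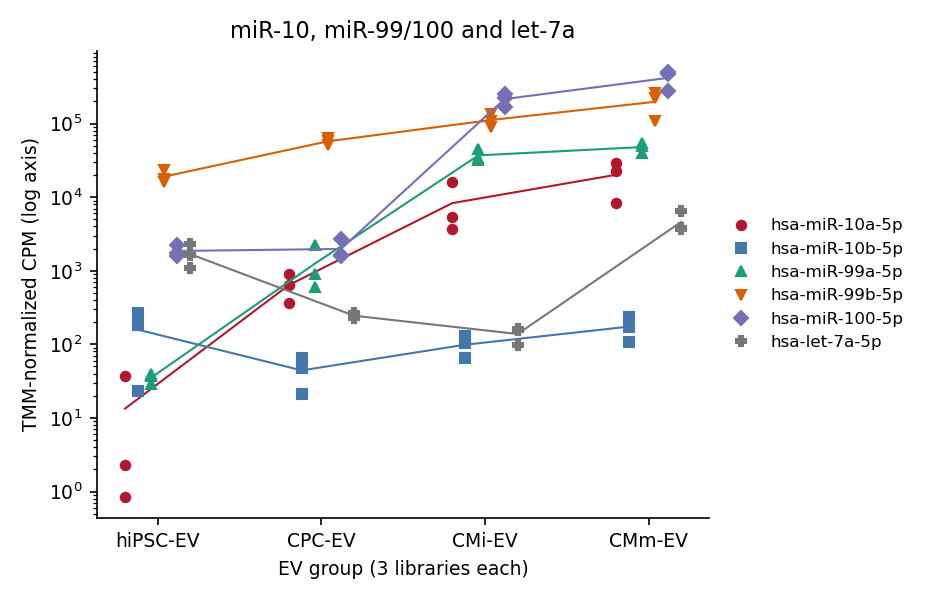
TMM-normalized CPM on a log axis of miR-10a-5p, miR-10b-5p, miR-99a-5p, miR-99b-5p, miR-100-5p and let-7a-5p against the EV group; each symbol is 1 library and lines join the group means. miR-10a-5p, miR-99a-5p and miR-99b-5p go up from hiPSC-EV to CPC-EV, miR-100-5p goes up from 1980 CPM in CPC-EV to 215357 CPM in CMi-EV, and let-7a-5p goes up from 138 CPM in CMi-EV to 4619 CPM in CMm-EV.

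Over the 12 libraries, the miRNA whose log2 CPM followed miR-10a-5p most closely among 366 others were miR-125b-2-3p (Pearson's r = 0.961), miR-99a-5p (r = 0.956) and miR-143-5p (r = 0.956). Those nearest to miR-10b-5p were miR-26a-5p (r = 0.876), miR-887-3p (r = 0.785) and miR-342-3p (r = 0.777). miR-10a-5p and miR-10b-5p had r = 0.188 with each other. The values are descriptions, since the libraries fall into 4 groups that set much of each r. Mean levels of miR-143-5p, an arm of a hairpin known from smooth muscle, were 0 CPM for hiPSC-EV and 27.1 CPM for CPC-EV, then 530.1 CPM for CMi-EV and 1211 CPM for CMm-EV. Those of miR-26a-5p were 64899, 42982, 57971 and 90904 CPM from the earliest to the latest stage.

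Fragments of HOX transcripts, read from the counts on gencode transcripts of the same libraries, were few. Of 39 protein-coding HOX genes 20 were analysed, and of 18 noncoding genes of the clusters 3. No HOX gene passed the filter, so none was tested, and all of them together held 293 counts, or 37.5 CPM of gencode counts. Summed over the 12 libraries, there were 154 counts in HOXA, 125 in HOXB, 5 in HOXC and 9.73 in HOXD. Most of the HOXA and HOXB counts came from single libraries. HOXA11 had 26 counts in hiPSC-EV 1 and 45 in CPC-EV 2, HOTAIRM1 had 31 in CPC-EV 2, HOTTIP had 26 in CMi-EV 3, HOXB4 had 45 in CPC-EV 2, and HOXB2 had 51 in CMi-EV 1.

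HOXB3, the gene that contains MIR10A, was the HOX gene with counts in the most libraries. It had 0 counts in every hiPSC-EV and CPC-EV library, 1, 7 and 8.38 counts in CMi-EV, and 1.99, 3.81 and 0.333 counts in CMm-EV. As CPM of gencode counts this is 2.24, 14.01 and 38.2 in CMi-EV and 15.2, 11.8 and 1.13 in CMm-EV. A level of 3 counts would be between 1.57 and 9.76 in hiPSC-EV and between 2.28 and 4.09 in CPC-EV. In the cardiomyocyte groups it would be between 6.00 and 22.8. CMi-EV 1, CMm-EV 1 and CMm-EV 3 were below that level of their own library. All HOXB3 counts lay in the cardiomyocyte groups, where miR-10a-5p was also highest. Between the libraries of these groups HOXB3 and miR-10a-5p did not always run together. CMi-EV 3 was the highest CMi-EV library in both, while CMm-EV 3 had the highest miR-10a-5p of all, at 29008 CPM, and 0.333 counts of HOXB3. In CPC-EV, where miR-10a-5p was at 364 CPM or more, no HOXB3 fragment was counted. HOXD3, which contains MIR10B, was not analysed here, and the gene of the HOXD cluster with the highest sum was HOXD8, at 6.80 counts in CMm-EV 3.

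Summed marker lists for the labelled stages separated hiPSC-EV, CPC-EV and the cardiomyocyte groups, and the cardiomyocyte list did not separate CMi-EV from CMm-EV. The pluripotency list (miR-302a-3p, miR-302b-3p, miR-302c-3p, miR-302d-3p and miR-367-3p) summed to between 171853 and 210161 CPM for hiPSC-EV and between 48452 and 78319 CPM for CPC-EV. It came to between 4001 and 6696 CPM for CMi-EV and between 110.04 and 302 CPM for CMm-EV, and was nearly all miR-302b-3p in hiPSC-EV and CPC-EV. miR-302a-3p and miR-302d-3p overlapped between hiPSC-EV and CPC-EV. The cardiomyocyte list was at no more than 69.3 CPM in hiPSC-EV, at 757 to 1519 CPM in CPC-EV and at 20795 CPM or more in CMi-EV and CMm-EV. miR-499a-5p was at 0 in all CPC-EV libraries and at 240 CPM or more in CMm-EV. In TMM-normalized CPM, miR-499a-5p, miR-208b-3p and miR-133a-3p were higher in every CMm-EV library than in every CMi-EV library. miR-1-3p, which led the sum, overlapped between these groups, as did miR-133b and miR-208a-3p. hiPSC-EV 2, the hiPSC-EV library with the highest miR-10a-5p, was not apart in these lists, with 177871 CPM for pluripotency and 46.5 CPM for cardiomyocytes. miR-486-5p led the blood list in all libraries, with up to 8636 CPM in hiPSC-EV 3, and the paper also counts miR-486 among the miRNA of striated muscle. The other blood entries were low. miR-451a was at no more than 41.1 CPM, reached in CPC-EV 1. miR-144-3p had counts in CPC-EV 2 only, at 10.4 CPM, and miR-150-5p in hiPSC-EV 2 and 3 only, at 38.2 and 43.1 CPM. miR-223-3p was not analysed here. The neural list was highest in hiPSC-EV 3, at 439 CPM, and was at 0 in all CMm-EV libraries.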

How the data were processed

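The authors assigned the reads with exceRpt on hg38, with miRBase 21 for miRNA, and the submitters' processing notes also name edgeR 3.24.0. The deposited tables hold expected counts of miRNA and of gencode transcripts, which are estimated and need not be whole, and the values were rounded to whole numbers before fitting. The RPM deposited by the authors served for library totals. The members and the lists were chosen with earlier results of these data known.

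Each pair was fitted on its 6 libraries with TMM scaling and the two-sided quasi-likelihood test (edgeR 4.0.16, R 4.3.3) and Benjamini-Hochberg adjustment over all miRNA tested. A miRNA entered when all 3 libraries of either group reached 5 CPM. The F-test used all 12 libraries. Named genes were the members, related miRNA, the 3 miRNA with the highest Pearson's r on log2(CPM + 1), HOX genes with the most counts, and marker lists. Shares used libraries with at least 10 counts. Alternatives were other scaling, filters, DESeq2 1.42.0, a common fit, a replicate block and each library left out. Python 3.11.15, scipy 1.17.1 and matplotlib 3.10.9 served for shares and figures.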

Additional observations from a re-analysis of the deposited data

How the results depend on the processing

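miR-10a-5p kept its direction in all 78 alternative fits of a pair, and its call in all but the 2 named above for CMm-EV against CMi-EV. There the number of members called went from 0 to 1 without a filter, and with 1 library left out it was between 0 and 1. In CMm-EV against CPC-EV it went from 2 to 1 with median-of-ratios scaling, with library size only, without a filter, with filterByExpr and with all 12 libraries in 1 fit, and was between 1 and 2 with 1 library left out; the causes were not tested. With library size only, the median log2 fold change of all miRNA in this pair also went from -0.44 to -1.70, and relative to that median miR-10b-5p was at 2.45 and 2.41. In CMm-EV against hiPSC-EV, miR-10b-5p, which was not called, was at -0.61 without hiPSC-EV 1 and turned from -0.23 to 0.21 with median-of-ratios scaling, 0.21 with DESeq2, 0.14 with all 12 libraries in 1 fit, 0.43 without hiPSC-EV 3, 0.40 without CMm-EV 1 and 0.06 without CMm-EV 2. In CMi-EV against hiPSC-EV it was at -0.90 without hiPSC-EV 1 and turned from -0.44 to 0.11 without hiPSC-EV 3. The share of miR-10b-5p kept its test result, with differences of 86.1 to 94.4 percentage points when 1 library was left out (exact permutation p from 0.000195 to 0.00104) and p = 0.00026 on the log2 ratio scale, which was chosen after seeing the data. The planned share of miR-196b-5p was not run.

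A fit with the replicate block called 1 member in CMm-EV against CPC-EV and turned miR-10b-5p to 0.30 in CMm-EV against hiPSC-EV. It changed no other call of a member. Libraries of the same number did not deviate together, with correlations from -0.121 to 0.0989 over 18 pairs, so the numbers were not taken as paired.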

Other observations

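Several limits apply to the values above. With 3 libraries a group, the level of miR-10a-5p in hiPSC-EV rests on hiPSC-EV 2. CMi-EV 3 raised the mean of miR-10a-5p in CMi-EV, and without it the rise from CPC-EV was smaller, at a log2 fold change of 2.87, and still called. hiPSC-EV 1, with the lowest depth, also had the lowest miR-10b-5p of its group, at 20 counts. Reads were not examined, so that exchange between closely similar miRNA, and the origin of HOX fragments along their genes, were not tested. Vesicles of a single hiPSC line were sequenced, and the cells that released them were not analysed here.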
